A study of Mus musculus with 10 samples.

Results

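The mRNAs described are those of the nuclear-encoded subunits of respiratory complexes II to V in long-term hematopoietic stem cells (LT-HSCs). Rows of the gene table whose symbols begin with Uqcr, Cox4 to Cox8 or Atp5 were taken, together with Sdha, Sdhb, Sdhc, Sdhd, Cyc1 and Cycs, and this gave 48 of 17404 genes. They comprise 4 subunits of complex II, 9 of complex III, cytochrome c (Cycs), 16 of complex IV and 18 rows of complex V, 1 of which is the pseudogene Atp5c1.ps. Cells had been sorted as CD150+ LT-HSCs from mouse fetal livers at E14.5, mid-gestation, and their RNA was amplified by SmartSeq2, which copies polyadenylated RNA along its full length. KO embryos (Tnfrsf11aCre; Spi1f/f, n = 6) carry Cre at the Tnfrsf11a locus, which is active in macrophage precursors, so that Spi1, the gene of PU.1, is lost there and most fetal macrophages are missing. WT embryos (Tnfrsf11a+/+; Spi1f/f, n = 4) were littermates without Cre, and the floxed Spi1 alleles are thus shared by both groups. The LT-HSCs themselves are stated to be wildtype in this model, and the comparison asks how their RNA differs where macrophages are absent. Nothing in the labels says which embryos share a litter, so p-values measure the spread between these 10 samples. The numbers in the sample titles run from 15405 to 15415 in KO and from 15416 to 15420 in WT. What these numbers stand for is not stated, and anything that follows them cannot be told apart from genotype.

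Complexes II to V sit in the inner mitochondrial membrane. Complex II (succinate dehydrogenase) passes electrons from succinate to ubiquinone, complex III (cytochrome bc1) passes them on to cytochrome c, complex IV (cytochrome c oxidase) hands them to oxygen, and complex V (ATP synthase) uses the proton gradient to make ATP. Complexes III to V combine nuclear-encoded subunits with a few made from mitochondrial DNA, whereas complex II is wholly nuclear. Fetal liver HSCs divide more than adult bone marrow HSCs, which are mostly quiescent and rely largely on glycolysis.

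Subunit mRNAs were lower in KO than in WT across all 4 complexes and for Cycs. Of 46 members with at least 11 counts in total, 14 fell (adjusted p below 0.1, Benjamini-Hochberg, by the quasi-likelihood test of edgeR), against 2.67% of the 16725 genes tested. None rose, at an adjusted p below 0.1 or at an unadjusted p below 0.05, and none rose with DESeq2. The log2 fold change was negative for 43 of 46 members, against 46.9% of all genes, with a median of -0.56 over the members and 0.06 over all genes. At an unadjusted p below 0.05, 33 members were lower, against 10.2% of all genes. The 14 were Sdhb, Uqcr10, Uqcr11, Uqcrq, Cycs, Cox4i1, Cox5a, Cox5b, Cox7a2, Cox7c, Atp5g1, Atp5k, Atp5l and Atp5o. Their adjusted p-values lay between 0.0824 and 0.0953, close to the threshold. DESeq2 with the study's log2 fold-change threshold of 0.1 called the same 14 members lower, against 3.36% of all genes. In 18 of 46 members every KO library lay below every WT library, against 3.48% of all genes. In bulk RNA, fewer cells of a type and less RNA per cell cannot be told apart.

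The calls depended on single libraries. With 1 library left out in turn, the median over the members stayed between -0.62 and -0.46. The number called fell to 0 without KO replicate 1, 2, 4, 5 or 6 or without WT replicate 1, to 7 without WT replicate 4, and was 13 to 18 without KO replicate 3, WT replicate 2 or WT replicate 3; 28 to 34 members were lower at an unadjusted p below 0.05 in the fits with 0 calls. An offset for transcript length left 0 members called (14 at an unadjusted p below 0.05), with 38 of 46 negative and a median of -0.31. The level of Xist, which marks female embryos, as a covariate left 0 called (30 at an unadjusted p below 0.05, median -0.58). In every one of these fits with 0 members called, 0 genes of the whole table were called lower. At an unadjusted p below 0.05, 1316 to 1663 genes of the table were lower in the leave-one-out fits with 0 calls. With the length offset 1312 were, and with Xist 1508. Without WT replicate 4, 451 genes of the table were called lower.

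**Figure D1:**
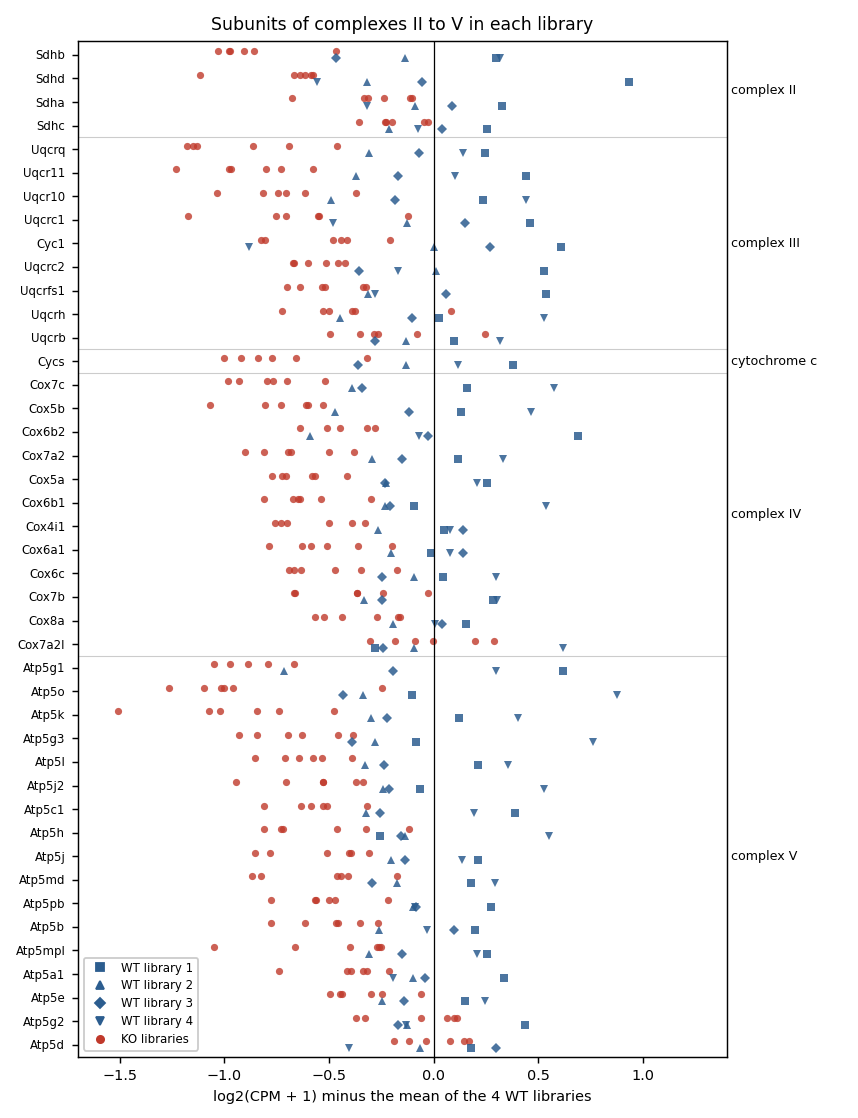
Level of 43 subunit mRNAs with a mean of at least 20 CPM in each library, as log2(CPM + 1) minus the mean of the 4 WT libraries; red circles are the 6 KO libraries and blue symbols the WT libraries. KO points lie to the left of 0 for nearly all genes, and WT replicates 1 and 4 supply most of the highest values. The groups do not overlap for 18 of the 43 members. Cox6b2 in KO replicate 3 (-2.265) and Atp5g1 in KO replicate 4 (-1.751) lie beyond the left end of the axis and are not drawn.

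Counts on genes ranged from 5315435 to 30941726 per KO library and from 7633446 to 18256010 per WT library, and member counts were scaled to CPM, a library-size-scaled count, with TMM factors. All 9 LT-HSC markers described (Slamf1, Kit, Ly6a, Procr, Mecom, Hlf, Cd34, Meis1 and Hoxa9) were detected in every library, with a summed level of 565 to 1448 CPM in KO and 352 to 571.5 in WT, and 4 of 9 rose, against 1.32% of all genes. Of other cell types, 1 of 12 macrophage markers fell (Marco, with 0 counts in all KO libraries), and 10 of the 12 were detected in every library. The 12 summed to 212 to 964 CPM in KO and 108 to 717 in WT. The mean sum was 527 CPM in KO and 504 in WT, of which Mrc1 gave 329 and 283. Of the 12 log2 fold changes, 8 were negative and 4 positive, with a median of -0.93. The 9 erythroblast markers with a row summed to 2187 to 94982 CPM in KO and 2487 to 240174.5 in WT, the highest being KO replicate 6 and WT replicate 3, and 1 of 9 fell (Epor). All 9 had a negative log2 fold change, with a median of -1.37, and 2 were lower at an unadjusted p below 0.05, Epor and Klf1 (-1.995, adjusted p = 0.101, edgeR), both named after their values were seen. No marker of neutrophils (8 genes), megakaryocytes (5), hepatoblasts (6) or endothelium (6) passed the test; their sums were 12.6 to 1307, 234 to 3277, 56.2 to 6159 and 901 to 6121 CPM in KO, and 6.07 to 2076, 213 to 1148, 153 to 4297 and 207 to 3844 CPM in WT. Among the WT libraries, replicate 1 had the lowest sum for every one of these other cell types. Its endothelial sum was 207 CPM, against 2705.5 to 3844 CPM in WT replicates 2 to 4. Without globin genes 14 members were called (median -0.52). Without KO replicate 6 and WT replicate 3 there were 0 (26 at an unadjusted p below 0.05, median -0.55). At equal depth, 14595 to 15454 genes were detected in KO and 13728 to 14583 in WT, so the groups did not overlap, and this number as a covariate left 0 members called (11 at an unadjusted p below 0.05, median -0.46). The part of these quantities in the result was not tested further. In the fits here with 0 members called, 0 genes of the whole table were called lower. At an unadjusted p below 0.05, 1600 genes of the table were lower without KO replicate 6 and WT replicate 3. With the number of genes detected as a covariate 1635 were.

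The highest values did not come evenly from the WT libraries. Among the 43 members with a mean of at least 20 CPM, the highest of all 10 libraries was WT replicate 1 for 21 members, WT replicate 4 for 19 and WT replicate 3 for 3. The median deviation from the WT mean was 0.21 in each of WT replicates 1 and 4, -0.24 in WT replicate 2 and -0.16 in WT replicate 3 on the log2 scale, and -0.73 to -0.36 in the 6 KO libraries. Over the 43 members, the Spearman's rho of these deviations with transcript length was -0.49 in WT replicate 4 and -0.27 in KO replicate 5, and 0.101 to 0.416 in the other 8 libraries. It is a description over genes of 1 library, and the WT values depend on each other because deviations were taken from the WT mean. In WT replicate 4, Atp5o (1649 CPM) and Cox7c (283 CPM) were at their highest, and Cyc1 (223 CPM) and Atp5d (171 CPM) at their lowest among all 10 libraries.

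Promoters of the members are shown because NRF1 and GABP, an ETS factor, are known activators of respiratory genes. RefSeq windows on GRCm38.p6, from 250 bases before to 50 after the start, were at hand for 36 members. The NRF1 core GCATGCGC was in 8 of 36 (22.2%, against 2.71% of all 32851 windows) and the ETS letters CCGGAAG in 13 (36.1%, against 8.86%), counting both strands. CCAAT was in 20 (55.6%, against 37.4%), the SP letters GGGCGG in 14 (38.9%, against 35.7%), the YY1 letters ATGGCGG in 2 (5.56%, against 4.05%) and TATAAA in 3 (8.33%, against 13.6%). The NRF1 and the ETS letters were both held by 5 members, Atp5k, Atp5l, Cox6a1, Sdhb and Uqcr11, against 0.521% of all windows. Of 12 members that fell and have a window, 5 held the NRF1 letters, 4 the ETS letters and 5 CCAAT. The SP letters were in 4 of these 12, the YY1 letters in 0 and TATAAA in 1. A difference between members that fell and the others was not tested for any motif. The stretches of 30 bases around the NRF1 letters are written in the direction of the gene, with the match in capitals (10 capitals where matches on both strands overlap).
Sdhb, chr4:140961206-140961235, plus strand: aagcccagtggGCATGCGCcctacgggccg
Uqcr11, chr10:80406807-80406836, minus strand: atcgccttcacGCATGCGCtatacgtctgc
Cycs, chr6:50566611-50566640, minus strand: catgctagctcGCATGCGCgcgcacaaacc
Atp5k, chr5:108434430-108434459, minus strand: tttcactgcgGCGCATGCGCctttctggct
Atp5l, chr9:44920963-44920992, minus strand: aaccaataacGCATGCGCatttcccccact
Uqcrc1, chr9:108936668-108936697, plus strand: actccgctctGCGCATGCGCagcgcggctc
Cox6a1, chr5:115349101-115349130, minus strand: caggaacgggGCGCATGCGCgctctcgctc
Atp5g2, chr15:102671070-102671099, minus strand: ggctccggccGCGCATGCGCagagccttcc

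The match began 54 bases before the start in Sdhb, 60 in Cycs, 50 in Atp5k, 42 in Atp5g2, 162 in Cox6a1, 240 in Atp5l and 4 in Uqcr11, and at base 31 after it in Uqcrc1. ETS letters (in capitals, on either strand) of the 4 members that fell and held both motifs lay in the following stretches, the match nearer the start being given for Atp5l.
Sdhb, chr4:140961265-140961294, plus strand: ggctcggagaaaCCGGAAGcggccttccac
Uqcr11, chr10:80406870-80406899, minus strand: tttctctcctccCCGGAAGtagatgtcaat
Atp5k, chr5:108434370-108434399, minus strand: gcctcagttgagCTTCCGGcgcgaaggtca
Atp5l, chr9:44920701-44920730, minus strand: ctgccgcgggtcCTTCCGGgggtgacattc

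For Cycs, a gene long used to study NRF1, the 200 bases before the start (chr6:50566570-50566769, minus strand, GRCm38.p6) are given with the NRF1 and CCAAT letters in capitals.
Cycs: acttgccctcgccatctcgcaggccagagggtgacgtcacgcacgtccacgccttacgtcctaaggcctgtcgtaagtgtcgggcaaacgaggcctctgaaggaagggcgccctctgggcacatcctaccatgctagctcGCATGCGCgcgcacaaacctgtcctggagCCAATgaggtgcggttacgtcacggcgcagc

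These matches describe the letters alone. The NRF1 letters were held by 5 members that fell and also by Atp5g2, Cox6a1 and Uqcrc1, which did not pass and whose KO and WT levels overlapped.

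Succinate dehydrogenase had 1 of 4 members past the threshold, with a median log2 fold change of -0.56. Sdhb (chr4:140961203-140979193, GRCm38) encodes the iron-sulfur subunit. Sdhb ranged from 259.9 to 385 CPM in KO, with a median of 277, and was at 653, 483, 384 and 662 CPM in WT replicates 1 to 4. KO replicate 3 was the highest KO library at 385 CPM and lay just above WT replicate 3, the other 5 KO libraries lying below all 4 WT libraries (log2 fold change -0.89 with a standard error of 0.19, adjusted p = 0.0824, edgeR). The membrane anchor Sdhd (chr9:50596357-50603812) did not pass. Sdhd ranged from 180.4 to 263 CPM in KO, with a median of 254, and was at 750.4, 314, 377 and 266 CPM in WT replicates 1 to 4. All 6 KO libraries were below all 4 WT libraries, but WT replicate 1 was far above the rest (log2 fold change -0.81 with a standard error of 0.26, adjusted p = 0.129, edgeR), and the log2 fold change was -0.39 without it. The flavoprotein Sdha, which oxidises succinate, lay at 358 to 533 CPM in KO and 459 to 718 in WT, a log2 fold change of -0.30 (adjusted p = 0.368). The other anchor, Sdhc, lay at 104 to 131 CPM in KO and 115 to 160.4 in WT, a log2 fold change of -0.19 (adjusted p = 0.556).

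In complex III, 3 of 9 members fell, all of them small accessory subunits, with a median over the complex of -0.61. Uqcr11 (chr10:80402997-80406830) is the smallest subunit and Uqcrq (chr11:53427922-53430831) is known as the ubiquinone-binding protein QP-C. Uqcr11 ranged from 282 to 446 CPM in KO, with a median of 360.2, and was at 903, 515, 591 and 715 CPM in WT replicates 1 to 4. Uqcrq ranged from 136 to 225 CPM in KO, with a median of 155, and was at 367, 249, 294 and 341 CPM in WT replicates 1 to 4. For both genes the groups did not overlap (Uqcr11, log2 fold change -0.90 with a standard error of 0.19, adjusted p = 0.0824; Uqcrq, log2 fold change -0.91 with a standard error of 0.19, adjusted p = 0.0824, edgeR). Uqcr10, a small subunit close to cytochrome c1, was the third, at 169 to 268 CPM in KO and 247 to 473 in WT, a log2 fold change of -0.75 (adjusted p = 0.091), and only KO replicate 3 exceeded the lowest WT library. Of the 2 core subunits, Uqcrc1 lay at 476 to 988 CPM in KO and 769.8 to 1482 in WT, a log2 fold change of -0.65 (adjusted p = 0.149), and Uqcrc2 at 202 to 240.4 CPM in KO and 251 to 464 in WT, a log2 fold change of -0.59 (adjusted p = 0.117). Neither passed, although the groups did not overlap for Uqcrc2. Among the redox subunits, Cyc1 (cytochrome c1) lay at 232 to 356 CPM in KO and 223 to 629 in WT, a log2 fold change of -0.61 (adjusted p = 0.206), with WT replicate 4 below every KO library. Uqcrfs1, the Rieske iron-sulfur protein, lay at 154 to 200.4 CPM in KO and 202 to 365 in WT, a log2 fold change of -0.55 (adjusted p = 0.158). The groups did not overlap for Uqcrfs1. Uqcrh, the hinge protein, lay at 226 to 395 CPM in KO and 274 to 539 in WT, a log2 fold change of -0.43 (adjusted p = 0.299). Uqcrb, which helps to bind ubiquinone, had the smallest difference, at 138 to 232 CPM in KO and 161 to 244 in WT, a log2 fold change of -0.21 (adjusted p = 0.606). Of the 31-base words of its main transcript, 58.2% also occur in other genes, so that its level is uncertain.

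Cycs (chr6:50562563-50566538), the electron carrier between complexes III and IV and a trigger of apoptosis once released, fell. Cycs ranged from 32.5 to 52.7 CPM in KO, with a median of 37.3, and was at 86.2, 60.2, 51.2 and 71.8 CPM in WT replicates 1 to 4. KO replicate 3 overlapped with WT replicate 3 and the other KO libraries were below all WT libraries (log2 fold change -0.78 with a standard error of 0.21, adjusted p = 0.091, edgeR). Its mean transcript length is the greatest among the tested members (3031 bases), and with the offset for transcript length its log2 fold change was -0.83, the most negative of the 46, next to -0.82 for Atp5g1. Cycs did not pass with that offset (adjusted p = 0.165, edgeR). With offsets for the effective length in each library, its difference shrank to -0.54 (adjusted p = 0.177, edgeR). The median over the members was -0.56 in that fit, and 13 were called lower. Of the 31-base words of the main Cycs transcript, 32.0% also occur in other genes, so that reads of Cycs may be split.

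Complex IV had 5 of 15 tested members past the threshold and a median of -0.51. Cox7c (chr13:86044816-86046904) and Cox5b (chr1:36691449-36693681), a small membrane subunit and a matrix-side zinc protein, had the smallest p-values. Cox7c ranged from 95.5 to 132 CPM in KO, with a median of 110.0, and was at 212, 144, 149.6 and 283 CPM in WT replicates 1 to 4. Cox5b ranged from 241 to 351 CPM in KO, with a median of 318, and was at 553, 365, 465 and 698 CPM in WT replicates 1 to 4. WT replicate 4 was highest for both genes and no KO library reached a WT library (Cox7c, log2 fold change -0.83 with a standard error of 0.21, adjusted p = 0.0836; Cox5b, log2 fold change -0.76 with a standard error of 0.19, adjusted p = 0.0836, edgeR). Cox5a, a matrix-side subunit, lay at 124 to 159 CPM in KO and 181 to 254 in WT, a log2 fold change of -0.65 (adjusted p = 0.0836). Cox7a2, the widely expressed isoform of subunit 7a, lay at 186 to 268 CPM in KO and 284 to 438 in WT, a log2 fold change of -0.67 (adjusted p = 0.0849). Cox4i1, the larger regulatory subunit, lay at 544 to 732 CPM in KO and 764 to 1011 in WT, a log2 fold change of -0.57 (adjusted p = 0.091), and none of these 3 overlapped between the groups. Words of 31 bases shared with other genes made up 57.2% of the main transcript of Cox7c and 47.2% of that of Cox5a, and Emc8 on the opposite strand covers 9.94% of the exonic bases of Cox4i1, so that reads of these genes may be split. Cox6b1, which faces the intermembrane space and was the most abundant complex IV mRNA per length, was just outside the threshold. Cox6b1 ranged from 384 to 547 CPM in KO, with a median of 431, and was at 631, 574, 583 and 976 CPM in WT replicates 1 to 4. Here too the groups did not overlap (log2 fold change -0.63 with a standard error of 0.18, adjusted p = 0.106, edgeR). Of the remaining small subunits, Cox6a1 lay at 352 to 529 CPM in KO and 528 to 670.5 in WT, a log2 fold change of -0.51 (adjusted p = 0.118). Cox6c lay at 169.8 to 243 CPM in KO and 231 to 337 in WT, a log2 fold change of -0.50 (adjusted p = 0.149). Both differences were negative and neither passed. Cox7b lay at 133 to 208 CPM in KO and 168 to 262 in WT, a log2 fold change of -0.40 (adjusted p = 0.291). Cox8a lay at 303 to 401 CPM in KO and 391.5 to 500.2 in WT, a log2 fold change of -0.35 (adjusted p = 0.232). Both differences were smaller, and both genes overlapped between the groups. Cox7a2l, a supercomplex assembly factor rather than a constitutive subunit, differed least in complex IV, at 226 to 341 CPM in KO and 229.9 to 429.7 in WT, a log2 fold change of -0.05 (adjusted p = 0.922).

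Tissue-restricted isoforms of complex IV were at low levels and none passed the test. Cox4i2, an isoform known from lung and oxygen sensing, had the largest positive difference. Cox4i2 ranged from 2.32 to 11.2 CPM in KO, with a median of 4.63, and was at 1.14, 4.17, 3.92 and 0 CPM in WT replicates 1 to 4. KO and WT overlapped, and WT replicate 4 had 0 counts (log2 fold change 1.27 with a standard error of 0.91, adjusted p = 0.484, edgeR). Cox7a1, the muscle isoform of Cox7a2, ranged from 0.596 to 4.47 CPM in KO, with a median of 1.5, and was at 1.52, 1.86, 0.665 and 0 CPM in WT replicates 1 to 4, a log2 fold change of 0.98 (adjusted p = 0.643). Cox6b2, known from testis, was higher than these isoforms. Cox6b2 ranged from 7.04 to 30.8 CPM in KO, with a median of 26.8, and was at 61.2, 24.7, 37 and 35.8 CPM in WT replicates 1 to 4. KO replicate 3 was lowest and WT replicate 1 highest (log2 fold change -0.71 with a standard error of 0.37, adjusted p = 0.329, edgeR). The muscle isoform Cox6a2 had 24 counts in all, 19 of them in KO replicate 5, 2 in KO replicate 6 and 3 in WT replicate 1, and 0 in the other libraries. Cox8b had 1 count in each of KO replicates 4 and 6 and WT replicate 1, and was not tested. Cox7b2, Cox8c and Uqcrhl were not analysed here.

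ATP synthase had 4 of 17 tested members past the threshold, with a median of -0.54; the row of the pseudogene Atp5c1.ps held 6 counts and was not tested. Atp5k (chr5:108433244-108434448), subunit e, and Atp5g1 (chr11:96068852-96075670), a source of the c-ring, had the smallest p-values. Atp5k ranged from 71.1 to 146 CPM in KO, with a median of 107, and was at 222, 166, 175 and 270.3 CPM in WT replicates 1 to 4. Atp5g1 ranged from 256 to 542 CPM in KO, with a median of 453, and was at 1324, 525, 753 and 1063 CPM in WT replicates 1 to 4. The groups did not overlap for Atp5k (log2 fold change -0.94 with a standard error of 0.22, adjusted p = 0.0824, edgeR). For Atp5g1, KO replicate 3 exceeded WT replicate 2, the other 5 KO libraries were below all WT libraries (log2 fold change -1.07 with a standard error of 0.26, adjusted p = 0.0824, edgeR), and 67.3% of the 31-base words of its main transcript are shared with other genes. Atp5l, subunit g, lay at 123 to 170.4 CPM in KO and 178 to 286 in WT, a log2 fold change of -0.64 (adjusted p = 0.0953), without overlap. Atp5o, the oligomycin sensitivity protein that joins the head to the outer stalk, lay at 374 to 759 CPM in KO and 667 to 1649 in WT, a log2 fold change of -0.99 (adjusted p = 0.0931). KO replicate 3 (759 CPM) exceeded WT replicates 2 and 3 for Atp5o, and WT replicate 4 (1649 CPM) was the highest library. Shared 31-base words made up 85.4% of the main transcript of Atp5l and 48.0% of that of Atp5o. Atp5b, the catalytic beta subunit, was the most abundant member of all per length. Atp5b ranged from 1226 to 1745 CPM in KO, with a median of 1527, and was at 2412, 1757, 2246 and 2056 CPM in WT replicates 1 to 4. Its groups did not overlap, but the difference did not pass (log2 fold change -0.49 with a standard error of 0.15, adjusted p = 0.118, edgeR). Of the other subunits of the F1 head and its inner stalk, Atp5a1, the alpha subunit, lay at 690.5 to 994 CPM in KO and 1009.5 to 1457 in WT, a log2 fold change of -0.41 (adjusted p = 0.191). Atp5c1, the rotating gamma subunit, lay at 297 to 417 CPM in KO and 416 to 682 in WT, a log2 fold change of -0.59 (adjusted p = 0.112). Atp5e lay at 119 to 160.4 CPM in KO and 141 to 199 in WT, a log2 fold change of -0.34 (adjusted p = 0.291), and Atp5d at 199 to 256 CPM in KO and 171 to 279 in WT, a log2 fold change of -0.01 (adjusted p = 0.981), with WT replicate 4 the lowest of all 10 libraries for Atp5d. Atp5c1 came nearest to the threshold among these 4. The outer-stalk subunits Atp5pb, Atp5h and Atp5j had log2 fold changes of -0.52 (adjusted p = 0.114), -0.55 (adjusted p = 0.185) and -0.54 (adjusted p = 0.118). The small membrane subunits Atp5j2, Atp5md and Atp5mpl had -0.59 (adjusted p = 0.137), -0.53 (adjusted p = 0.162) and -0.48 (adjusted p = 0.221). These 6 genes were thus close to each other in size of difference, and none passed; 60.8% of the words of Atp5h and 44.0% of those of Atp5md are shared with other genes. Of the remaining c-subunit genes, Atp5g3 lay at 202 to 295 CPM in KO and 294 to 653 in WT, a log2 fold change of -0.72 (adjusted p = 0.124), and Atp5g2 at 29.3 to 41.4 CPM in KO and 33.9 to 52 in WT, a log2 fold change of -0.09 (adjusted p = 0.854).

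**Figure D2:**
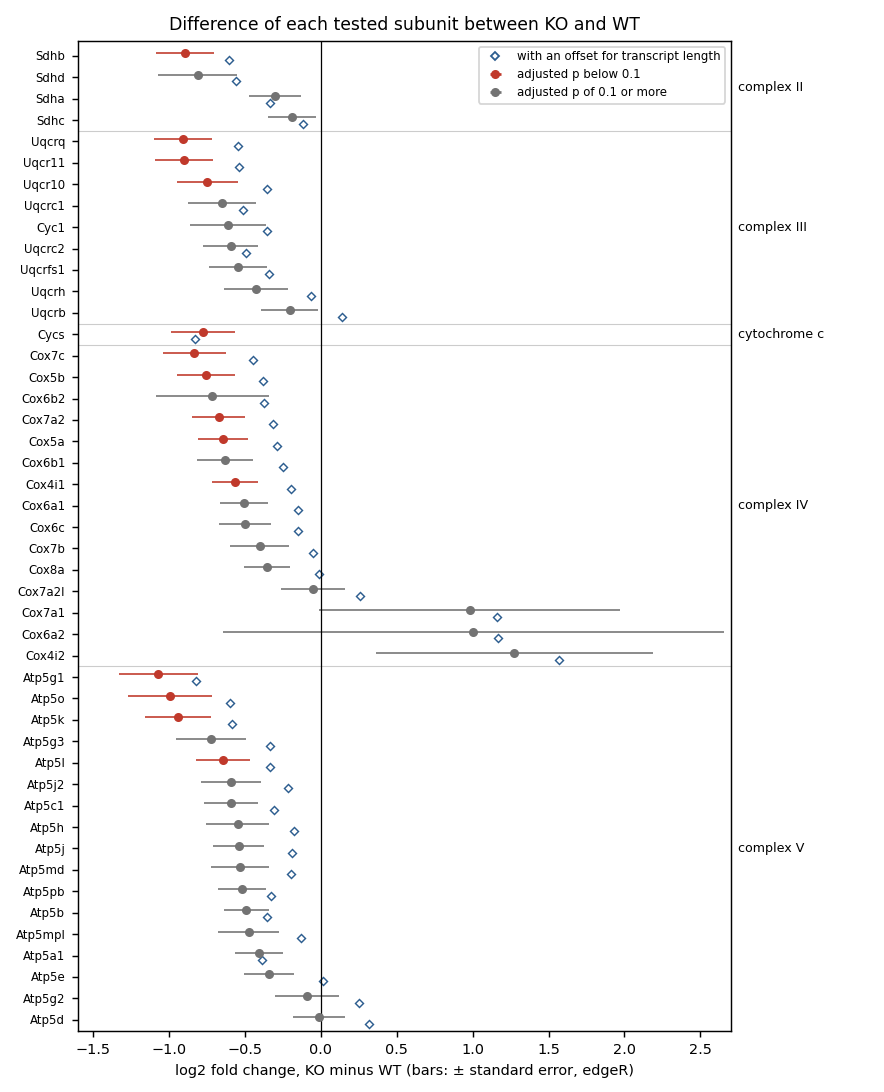
Log2 fold change, KO minus WT, of the 46 tested members with its standard error from edgeR (red, adjusted p below 0.1), and the estimate with an offset for transcript length (open diamonds). All 14 red points lie between -1.07 and -0.57; the diamonds of 5 of the other members cross 0.

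Member transcripts are short, and transcript length moved with the difference over the whole table. Over the length quintile with the shortest transcripts (up to 1480.1 bases) the median log2 fold change was -0.31 and 7.67% were called lower; over that with the longest it was 0.35 and 0.272% were. Of the members, 39 are in the shortest quintile, with a median of -0.57 and 13 called. The 4 members in the next quintile had a median of -0.54, where all genes had -0.08, and the 3 in the middle quintile had -0.41, where all genes had 0.04. Among the members themselves Spearman's rho of length and log2 fold change was 0.06 over 46 genes, and 0.125 over the 43 with at least 20 CPM. Over 16557 genes it was 0.241. The members span only 341 to 3031 bases, against 62 to 84395 for all genes, so their rho says little about length. With the length offset no gene in the table was called lower, although 1312 were lower at an unadjusted p below 0.05. The signs of Uqcrb, Cox7a2l, Atp5d, Atp5e and Atp5g2 then turned, to values between 0.01 and 0.32.

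**Figure D3:**
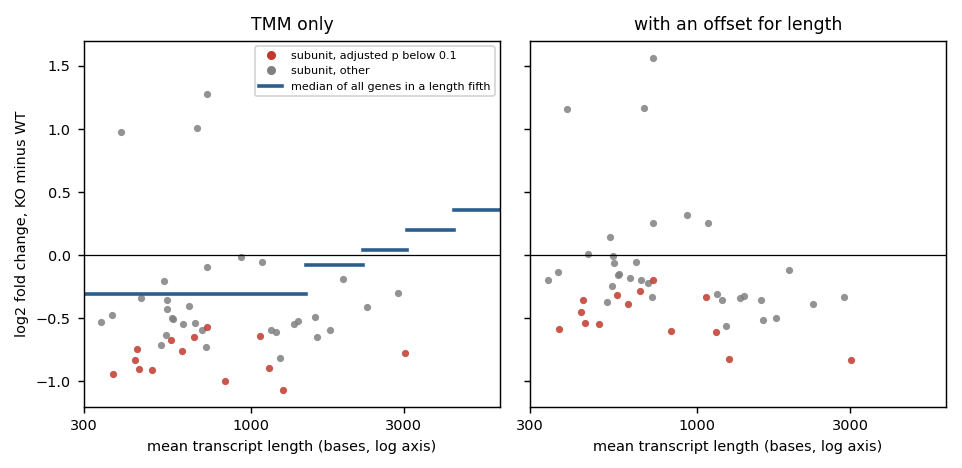
Log2 fold change of each tested member against its mean transcript length (log axis), after TMM scaling alone (left) and with an offset for transcript length (right); red points are the 14 members called by edgeR after TMM alone, and blue lines are medians of all genes in quintiles of length, drawn within the axis. Most members lie below the blue lines at the left, and the medians of the members are -0.56 at the left and -0.31 at the right.

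Levels between genes are compared in TPM, the share of transcripts after division by length; values with ± are means and SD over 6 KO or 4 WT libraries. The members together took 2.12% of TPM in KO and 2.44% in WT, a ratio of 0.87. Their sum ranged from 16951 to 26209 TPM in KO and from 16447 to 29373 in WT, so the groups overlapped. Globins took 0.582 to 20.6% of TPM in KO and 0.212 to 36.1% in WT, the highest share being in WT replicate 3, and the ratio was 0.832 on TPM rescaled without globins. On that scale the ratios per complex were 0.825 for complex II, 0.80 for complex III, 0.893 for Cycs, 0.869 for complex IV and 0.82 for complex V. The rescaled sum of all members still overlapped, at 20341 to 26422 TPM in KO and 24558 to 29583 in WT. Mean TPM was at least 100 for 40 of 48 members. Atp5b was highest (1442 ± 255 TPM in KO and 1689.5 ± 394 TPM in WT). Next were Uqcr11 (1050.4 ± 218 TPM in KO and 1455 ± 437 TPM in WT) and Cox6b1 (1132 ± 248 TPM in KO and 1283 ± 428 TPM in WT). Within complex II, Sdhb was the most abundant (297 ± 68.1 TPM in KO and 413 ± 135 TPM in WT), and Sdhc the least (127 ± 32.8 TPM in KO and 101 ± 23 TPM in WT). Cycs had 17.7 ± 4.55 TPM in KO and 19 ± 5.08 TPM in WT, and 42 of the 48 members had a higher mean. Mean TPM was higher in KO for 12 of 48 members. Unlike TMM-scaled CPM, TPM are not adjusted for a few dominant genes, but why TPM and CPM differ here was not tested.

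**Figure D4:**
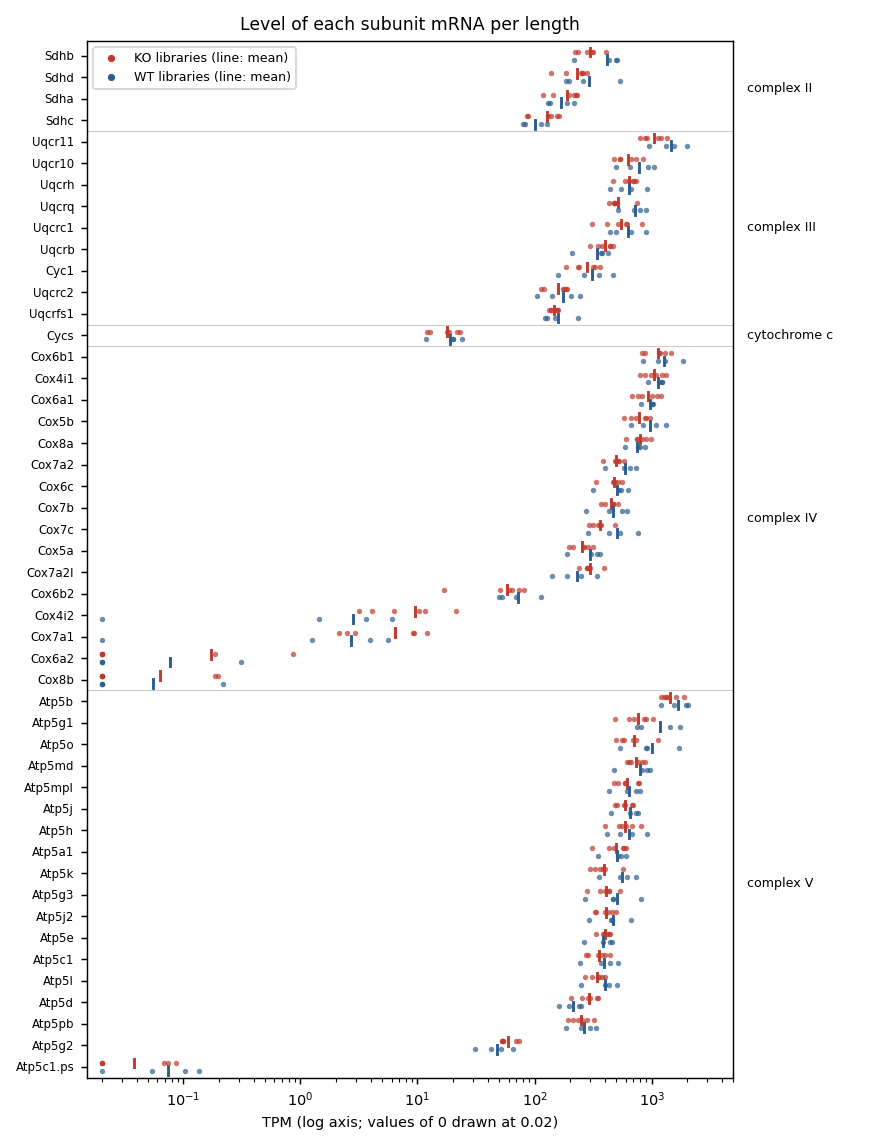
TPM of each of the 48 members in each library on a log axis, ordered by mean within each complex (red, KO; blue, WT; lines are means, and values of 0 are drawn at 0.02). The means of 40 members lie at 100 TPM or above, and Cycs, Cox6b2, Atp5g2 and the tissue-restricted isoforms lie below.

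Paralogous subunits were compared as shares of their family's TPM, which do not depend on library scaling. Of 8 shares tested, 3 differed at an adjusted p below 0.05 (two-sided exact permutation tests over 210 assignments, adjusted over 8 shares). The shares of a family depend on each other, and values with ± are means and SD over 6 KO or 4 WT libraries. Of the Cox7a family, Cox7a2 made up 64.5, 63, 66, 55.3, 64 and 60.8% in KO replicates 1 to 6 and 77.1, 69.4, 73.6 and 68.3% in WT replicates 1 to 4. All KO shares were below all WT shares, with means of 62.3% ± 3.83 in KO and 72.1% ± 4.01 in WT. The KO mean fell by 9.85 percentage points (exact permutation p = 0.00476, the smallest that 6 against 4 allow, adjusted p = 0.019). The share of Cox7a2l rose, with 36.9% ± 3.88 in KO and 27.5% ± 4.09 in WT, and again without overlap (exact permutation p = 0.00476, adjusted p = 0.019). Of the 3 genes for subunit c, which encode the same mature protein, Atp5g2 made up 4.9% ± 0.776 in KO and 2.89% ± 0.808 in WT (exact permutation p = 0.00952, adjusted p = 0.0254), and 5 of 6 KO shares were above all WT shares. Most of the sequence of Atp5g2 (87.7% of 31-base words) is shared with other genes, so its share is uncertain, and without 1 of KO replicates 1, 2, 4, 5 and 6 or WT replicates 1, 3 and 4 its adjusted p was above 0.05, up to 0.0635. Atp5g1 was the main source in both groups (61.8% ± 5.57 in KO and 68% ± 7.35 in WT; exact permutation p = 0.167, adjusted p = 0.26), and Atp5g3 made up the rest (33.3% ± 5.17 in KO and 29.1% ± 7.34 in WT; exact permutation p = 0.314, adjusted p = 0.359). Cox4i2 made up 0.913% ± 0.637 in KO and 0.258% ± 0.242 in WT of the Cox4 family (exact permutation p = 0.0762, adjusted p = 0.152), and Cox7a1 0.852% ± 0.666 in KO and 0.342% ± 0.29 in WT of the Cox7a family (exact permutation p = 0.195, adjusted p = 0.26). Cox6b2 made up 5.12% ± 2.09 in KO and 5.57% ± 2.53 in WT of Cox6b (exact permutation p = 0.767, adjusted p = 0.767).

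**Figure D5:**
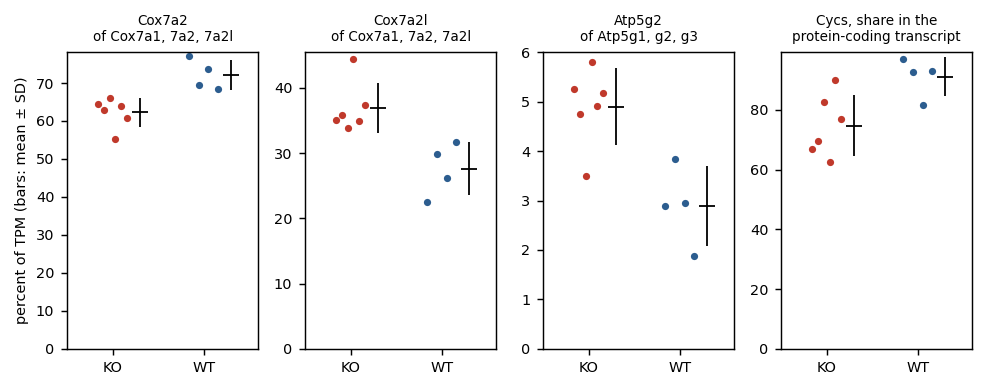
Percent of family TPM given by Cox7a2, Cox7a2l and Atp5g2, and percent of Cycs TPM on its protein-coding transcript, in each library (red, 6 KO; blue, 4 WT; black, mean ± SD). KO and WT do not overlap for Cox7a2 and Cox7a2l and overlap by 1 KO library for Atp5g2; the Cycs shares overlap.

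The share of a member's TPM on transcripts annotated as protein-coding was compared for 33 members. None differed at an adjusted p below 0.05 (smallest adjusted p = 0.236), and 3 did at an unadjusted p below 0.05. Cycs had the largest difference among these 3, with 67, 69.6, 82.8, 62.5, 89.9 and 76.9% in KO replicates 1 to 6 and 97.2, 92.6, 81.8 and 92.9% in WT replicates 1 to 4. The means were 74.8% ± 10.4 in KO and 91.1% ± 6.57 in WT, the rest lying on a retained-intron transcript (exact permutation p = 0.0286, adjusted p = 0.314). Cox5a and Atp5g3 differed by 0.492 and 1.01 percentage points (exact permutation p = 0.0143 for each, adjusted p = 0.236). Most Cox7c TPM was on a transcript of 315 bases annotated as a processed transcript, so that its protein-coding share was 37.5% ± 6.24 in KO and 32.1% ± 5.23 in WT (exact permutation p = 0.205, adjusted p = 0.679). A transcript of Atp5o annotated for nonsense-mediated decay had a mean of 44.5 TPM in KO, where replicate 5 reached 113 TPM, and of 10.1 TPM in WT; the protein-coding share of Atp5o was 93% ± 6.74 in KO and 98% ± 1.99 in WT (exact permutation p = 0.162, adjusted p = 0.679).

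The other genes of oxidative metabolism were read from lists, and values with ± are means and SD over 6 KO or 4 WT libraries. Over all genes tested 2.67% were called lower, 1.32% higher, and 46.9% had a negative log2 fold change. In the quintile with the shortest transcripts 7.67% were called lower. No list was tested as a set. Of 40 rows taken as complex I subunits by symbol alone, 15 fell and 0 rose, with a median log2 fold change of -0.65 and 39 negative. The only positive row was the pseudogene Ndufa12.ps, at a mean of 0.671 CPM in KO and 0.364 in WT. Ndufb10, an accessory subunit, had 169 ± 26.1 CPM in KO and 365 ± 107 in WT, a log2 fold change of -1.11 (adjusted p = 0.0824), and Ndufb9 237 ± 29.7 CPM in KO and 423 ± 71.5 in WT, a log2 fold change of -0.83 (adjusted p = 0.0824). Of 33 tested assembly factors of complexes II to V, 3 fell and 0 rose (median -0.51). They were Cox17, the copper chaperone of complex IV, at 86.8 ± 13.6 CPM in KO and 203 ± 59.1 in WT, a log2 fold change of -1.23 (adjusted p = 0.0824), Coa3 at 122 ± 29.5 CPM in KO and 247 ± 84.1 in WT, a log2 fold change of -1.02 (adjusted p = 0.0824), and, named after its value was seen, Surf1. Of 16 TCA cycle and pyruvate dehydrogenase genes, 3 fell (Mdh2, Idh3b and, named after its value was seen, Sucla2), 0 rose and all 16 were negative (median -0.46). Mdh2, the mitochondrial malate dehydrogenase, had 554 ± 96.9 CPM in KO and 960.3 ± 258 in WT, a log2 fold change of -0.79 (adjusted p = 0.0824), and Idh3b 233 ± 18.3 CPM in KO and 351 ± 50.6 in WT, a log2 fold change of -0.59 (adjusted p = 0.0836). Of 14 regulators 1 fell, Atpif1, the inhibitor of ATP synthase, with 364 ± 90.9 CPM in KO and 763 ± 195 in WT, a log2 fold change of -1.07 (adjusted p = 0.0824); 0 rose, and the median was -0.11. Ppargc1a, a coactivator of respiratory genes, was at 3.52 ± 1.93 CPM in KO and 1.06 ± 0.473 in WT, a log2 fold change of 1.74 (adjusted p = 0.205). With the offset for transcript length 0 genes of these 4 lists were called lower, and the median of complex I was -0.31.

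The 13 subunits encoded in mitochondrial DNA, which join complexes I and III to V, had a median log2 fold change of -0.07, with 7 negative and 6 positive. None passed by edgeR, at an adjusted p below 0.1 or an unadjusted p below 0.05, and none passed by DESeq2. mt-Cytb, of complex III, was at 6017 ± 2273 CPM in KO and 8593 ± 2326 in WT, a log2 fold change of -0.51 (adjusted p = 0.343), and mt-Atp8, of complex V, at 349.6 ± 96.9 CPM in KO and 456 ± 48.6 in WT, a log2 fold change of -0.38 (adjusted p = 0.351). Mitochondrially encoded transcripts took 8.34 to 16.7% of TPM in KO and 9.39 to 15.6% in WT. The difference between these 13 genes and the nuclear members was not tested. With the offset for transcript length their median was 0.23 and that of the 46 members -0.31.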

How the data were processed

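RNA of CD150+ LT-HSCs sorted from single E14.5 fetal livers (6 KO, 4 WT) was amplified with SmartSeq2 and sequenced single-end; reads carry no molecular identifiers. The authors demultiplexed with bcl2fastq 2.20 and quantified with kallisto 0.44.0 against Gencode vM16 (GRCm38). They deposited a gene table of estimated counts rounded to whole numbers (read counts) and, per library, transcript tables of estimated counts and TPM. No per-sample column was left unused.

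Testing covered genes whose counts summed to 11 or more and used edgeR 4.0.16 (TMM, robust quasi-likelihood fit; R 4.3.3), with Benjamini-Hochberg adjustment over all 16725 genes and a threshold of 0.1; standard errors were derived from the F statistics. DESeq2 1.42.0 with the study's settings was an alternative. Shares were tested by two-sided exact permutation, and fits were checked on simulated data. CPM were TMM-scaled. The genome annotation was Gencode vM21 on GRCm38; length is the expression-weighted mean over transcripts. A difference of 1 in log2 is a doubling. Depth was 5315435 to 30941726 counts per library. Members, lists and tests were chosen with earlier results of these data known. Values by library (each WT library, and the lowest, median and highest of KO) were given for the 2 smallest p and the highest TPM per complex, the largest positive difference and tissue-restricted isoforms (counts for Cox6a2 and Cox8b); for other lists, the 2 smallest p. Alternatives were other scalings, filters, offsets (length, GC, effective length), covariates (Xist, genes detected), each library left out, DESeq2, and 3 chosen after seeing the data (globin genes removed; KO library 6 and WT library 3 removed; TPM without globins). Of the LT-HSC markers chosen, 1 is not reported here and was left out of the list's sum.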

Additional observations from a re-analysis of the deposited data

Results flagged for a closer look

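Single libraries stood apart from the others of their group in 12 of 92 groups of member values, by the gap of the highest or lowest library to its nearest neighbour relative to the range (Dixon's 95% limit); chance gives about 1 in 20 groups. KO replicates 3 and 5 and WT replicates 1 and 4 each gave 3 of the 12.

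In KO replicate 3, Sdhb was at 385.3 CPM (the other KO libraries at 259.9 to 292.5), Atp5o at 758.8 CPM (374.3 to 463.1) and Cox6b2 at 7.04 CPM (23.8 to 30.8). In KO replicate 5, Sdhd was at 180.4 CPM (246.8 to 263.0), Uqcrh at 395.1 CPM (225.6 to 288.1) and Cox6a2 at 0.588 CPM (0 to 0.131). In WT replicate 4, Cox6b1 was at 976.5 CPM (the other WT libraries at 573.6 to 630.8), Cox7a2l at 429.7 CPM (229.9 to 261.3) and Atp5h at 615.4 CPM (351.1 to 381.9). In WT replicate 1, Atp5g2 was at 52.0 CPM (33.9 to 34.9), Atp5pb at 524.4 CPM (404.6 to 409.1) and Cox6a2 at 0.228 CPM (0 in the others).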

How the results depend on the processing

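In every one of 24 refits 0 members rose, and 38 of 46 members kept a negative log2 fold change. The number lower was 28 with DESeq2 without a fold-change threshold and 9 with upper-quartile factors, against 14. It was 0 with an offset for transcript length (median -0.31), with Xist or the number of genes detected as a covariate, without KO library 6 and WT library 3 (chosen after seeing the data), and at an adjusted p below 0.05. In each of these settings 0 genes of the whole table were lower. With the length offset, 0 assembly factors, 0 TCA cycle genes, 0 regulators and 0 complex I subunits were lower. Cox6a2, with 24 counts, turned to -2.87 with Xist and -7.14 with genes detected, and Cox7a1 to -1.45 with genes detected; the cause was not tested.

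Leaving out 1 library gave 0 to 18 members lower, 0 higher and a median of -0.62 to -0.46. Of all genes tested, 0 to 598 were lower in these fits. Over the same fits 0 to 5 assembly factors, 0 to 4 TCA cycle genes, 0 to 1 regulators, 0 to 26 complex I subunits and 0 mitochondrially encoded subunits were lower. The share difference ranged from 1.68 to 2.34 percentage points for Atp5g2 (adjusted exact permutation p 0.0212 to 0.0635), from -11.1 to -8.2 for Cox7a2 and from 7.65 to 10.7 for Cox7a2l. No paired analysis was possible because the labels tie no KO embryo to a WT embryo. Members with few counts, such as Cox6a2 and Cox7a1, are limited by depth.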
